A study of Caenorhabditis elegans with 10 samples.

Results

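The genes described here encode cytochrome P450 enzymes outside family 35 in the nematode Caenorhabditis elegans. They were chosen by their annotation: every probe set listing exactly 1 gene with a symbol of the cyp form, family 35 left out, with the brightest probe set kept for a gene that had 2. This gave 63 genes in 14 families, among 17118 named genes and 22548 probe sets tested. The mutant worms carried gas-1(fc21), a missense mutation in a gene for a subunit of complex I of the mitochondrial electron transport chain, and the comparison worms were N2 (Bristol) wild type. Each group had 5 biological replicates on 1 Affymetrix whole-genome array each. All worms were synchronised young adults fed OP50 bacteria and sorted by size, and RNA came from pools of whole worms, so no tissue was separated. The study set out to find metabolic pathways that change downstream of the electron transport chain defect.

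Cytochrome P450s are haem proteins that use molecular oxygen and electrons from NADPH to oxidise lipids, hormones and foreign compounds. Most sit in the endoplasmic reticulum and receive electrons from a shared reductase, encoded in worms by emb-8. Worms make no haem and must take it up from food, chiefly through the intestine. P450 names follow sequence likeness: the number is the family and the letter the subfamily. Families 14, 33 and 34 resemble the vertebrate CYP2 enzymes, families 13, 25 and 43 the CYP3 enzymes, and families 29, 31, 32, 37 and 42 the CYP4 enzymes.

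Values are the deposited signals, whose log2 scale was inferred from their range, and the medians of the 10 arrays lay between 6.22 and 6.61. Control probe sets for bacterial transcripts gave a background of 4.39 to 4.69 on the mutant arrays and 4.43 to 5.25 on the wild-type arrays, highest on wild-type replicate 1. A gene is called at background in a group whose mean did not exceed the highest background of that group's arrays. The gas-1 transcript, on the brighter of its probe sets, read 11.11 ± 0.21 in gas-1 worms and 10.44 ± 0.19 in N2 worms (SD, n = 5), which does not check a missense genotype. Both its probe sets were called higher (limma adjusted p = 0.00568 for the brighter, 0.0108 for the other). Each has a suffix that marks probes shared with like sequences. Mutant replicates 4 and 5 and wild-type replicates 1 and 5 correlated least with their own groups, with median correlations of 0.973 to 0.981 against at least 0.985 for the other arrays. Markers of the worm's tissues were present in both groups. Intestine markers had array means of 9.70 to 10.41 in gas-1 worms and 9.84 to 10.35 in N2 worms, with 1 of 9 genes called higher and 2 called lower. Sperm markers ranged over 6.82 to 9.56 in gas-1 worms and 8.24 to 10.65 in N2 worms, with 1 of 11 called lower and 10 lower at an unadjusted p under 0.05. By limma, 0 of 7 hypodermis and 0 of 6 body wall muscle markers were called, with 0 and 1 at an unadjusted p under 0.05, and 1 of 8 neuron markers was called higher. In whole worms, fewer cells of a type and less RNA per cell cannot be told apart.

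In the mutant, 17 of the 63 P450 genes rose, 2 fell and 44 did not pass the test. The largest rises were 32.8-fold for cyp-33C8, 12.5-fold for cyp-14A4 and 7.29-fold for cyp-14A1, and no fall reached 2-fold. For cyp-14A4 the log2 difference was 3.64 over all arrays and 2.99 without mutant replicates 4 and 5. The share that rose was 27%, against 7.54% of all probe sets, and the share that fell was 3.17%, against 4.28% of all probe sets. Of the 63, 7 rose at least 2-fold, or 11.1%, against 1.98% of all probe sets. Calls are from limma over all probe sets, at a Benjamini-Hochberg adjusted p under 0.05.

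For 15 of the 63 genes, or 23.8%, the lowest mutant array exceeded the highest wild-type array, against 8.27% of probe sets. The reverse held for 2 genes, or 3.17%, against 4.67% of probe sets. The differences were positive for 40 genes and negative for 23, with a median of 0.11 on the log2 scale, against 0.003 over all probe sets. Of the 44 genes that did not pass, 43 had differences smaller than 0.5 in size. The 8 genes cyp-13A1, cyp-13A3, cyp-13A4, cyp-13A6, cyp-33B1, cyp-33C2, cyp-33C12 and cyp-33E3 were at background in both groups. Apart from these, 16 genes rose and 1 fell. RefSeq lists cyp-29A1, cyp-31A1 and cyp-34A3 as pseudogenes. For 9 of the 63 genes the probe set has a suffix that marks probes shared with like sequences, and 6 of these were among the 17 that rose. Without mutant replicates 4 and 5 and wild-type replicates 1 and 5, 20 genes rose (31.7%, against 10.3% of all probe sets) and 4 fell (6.35%, against 11.2%), and 16 of the 17 were among these 20. Calls over all probe sets were thus more frequent in both directions with these arrays left out.

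**Figure D1:**
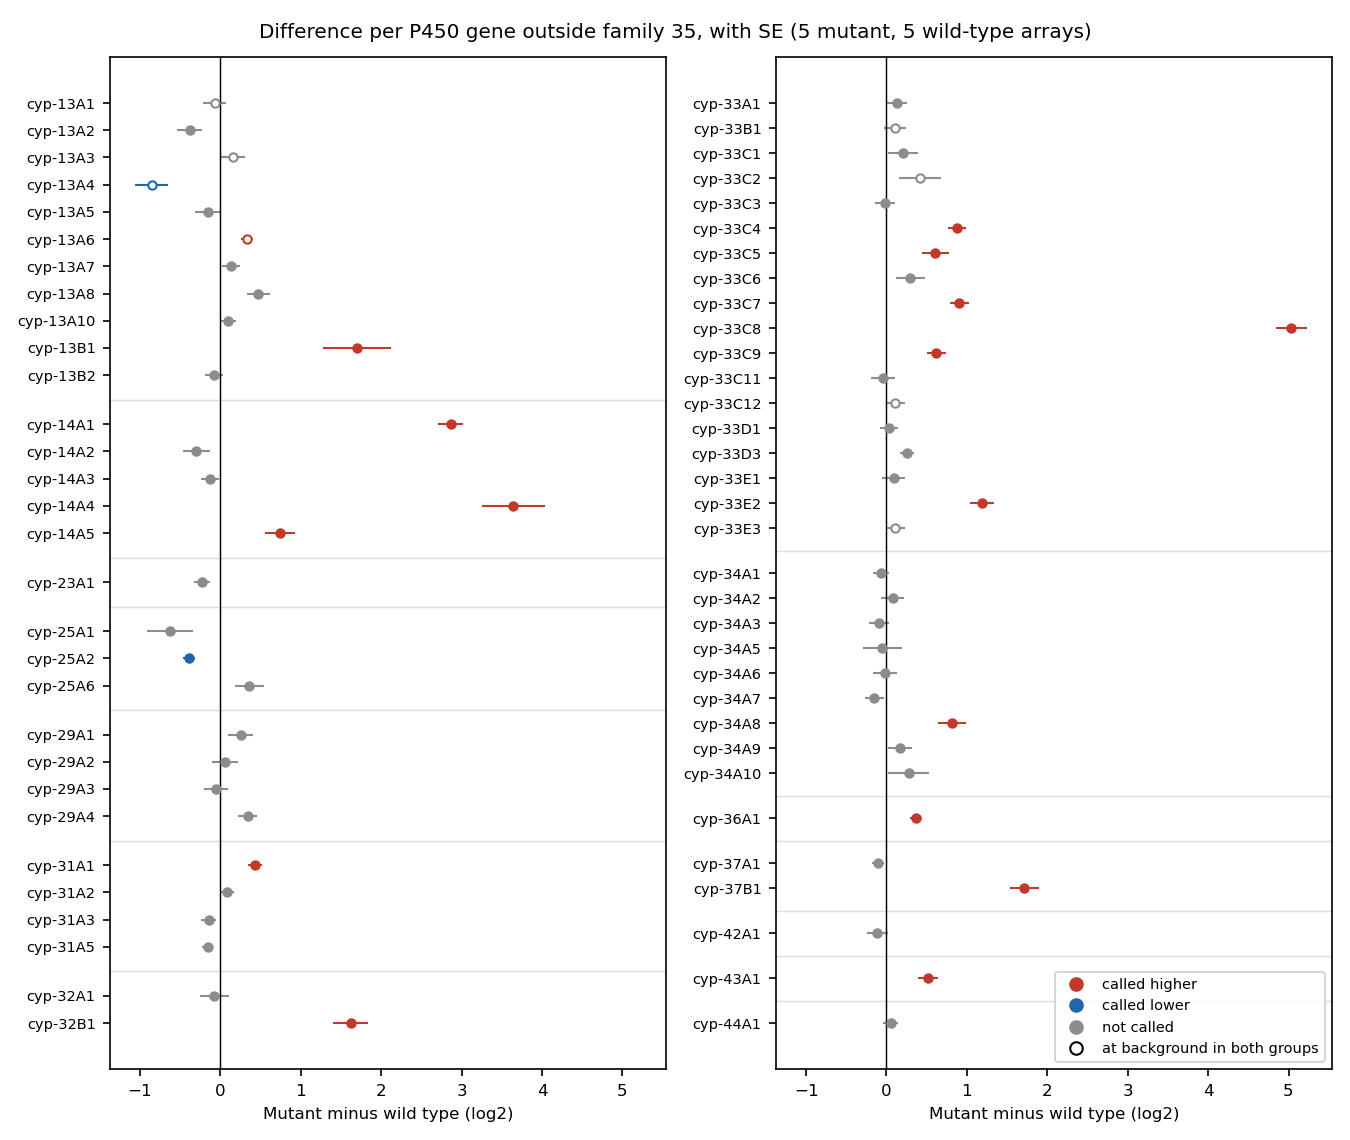
Difference between mutant and wild type (log2, x axis) for each of the 63 P450 genes, in family order down the page. Points are limma estimates from 5 mutant and 5 wild-type arrays, bars are SE, red is called higher, blue is called lower, grey is not called, and open points are at background in both groups. The highest point is cyp-33C8 at 5.03 and the lowest is cyp-13A4 at -0.86, with most others close to 0.

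Family 33 is the largest family here, with 18 genes, of which 6 rose (33.3%, against 7.54% of all probe sets) and 16 had positive differences. By limma 0 genes fell in it, and 0 were lower at an unadjusted p under 0.05. The rises were in subfamily 33C, with 5 of 11 genes, and in subfamily 33E, with 1 of 3 genes. The gene cyp-33C8 had 10.14, 10.58, 10.60, 11.06 and 10.94 on mutant arrays 1 to 5, against 5.54, 5.71, 5.33, 5.45 and 6.11 on wild-type arrays 1 to 5. The lowest mutant array thus stood far above the highest wild-type array. Mutant replicates 4 and 5 were the highest of their group, as was wild-type replicate 5 of its own. Means were 10.66 ± 0.36 in gas-1 worms and 5.63 ± 0.30 in N2 worms (SD, n = 5), a difference of 5.03 (SE 0.19, limma adjusted p = 2.28e-07). The exact permutation test gave p = 0.00794, the smallest that 252 assignments of 10 arrays can give. Across all 21 alternative settings the difference stayed between 4.81 and 5.17.

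The other 33C genes that rose did so by less than 2-fold. They were cyp-33C7 (0.91, SE 0.11, 1.88-fold, limma adjusted p = 0.000582), cyp-33C4 (0.88, SE 0.11, 1.84-fold, adjusted p = 0.000697), cyp-33C9 (0.62, SE 0.12, 1.54-fold, adjusted p = 0.00641) and cyp-33C5 (0.61, SE 0.16, 1.53-fold, adjusted p = 0.036). For cyp-33C7 the mutant arrays had 6.21, 6.03, 5.75, 5.76 and 6.09, against 4.80, 5.16, 5.16, 5.13 and 5.06 on wild-type arrays. All mutant arrays were above all wild-type arrays, but the wild-type mean did not exceed the background of wild-type replicate 1. The rise against the higher of value and background was 1.76-fold. The groups overlapped for cyp-33C5, with mutant replicate 1 at 5.51 and wild-type replicate 1 at 5.62. Its call ended without any 1 of mutant replicates 2 to 5 or wild-type replicates 2 to 5, at adjusted p of 0.0545 to 0.0921, and without mutant replicates 4 and 5 at adjusted p = 0.115. The probe sets of cyp-33C4 and cyp-33C5 have the suffix of probes shared with like sequences, so copies with like sequence cannot be told apart from them.

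The remaining 6 genes of subfamily 33C did not pass, with differences of -0.04 to 0.42. Among them cyp-33C3 was at 6.66 ± 0.12 in gas-1 worms and 6.68 ± 0.27 in N2 worms (SD, n = 5). In subfamily 33E, cyp-33E2 makes oxygenated derivatives of eicosapentaenoic acid, a polyunsaturated fatty acid of worm membranes. It had 6.90, 6.72, 7.03, 6.72 and 6.70 on mutant arrays, against 5.06, 5.76, 5.75, 5.77 and 5.80 on wild-type arrays. The groups did not overlap, and wild-type replicate 1 was the low value of its group, below that array's background of 5.25. The rise was 2.28-fold (1.19, SE 0.15), or 2.22-fold against the higher of value and background. It had a limma adjusted p of 0.000579 and an exact permutation p of 0.00794. Its subfamily members cyp-33E1 (0.09, SE 0.14) and cyp-33E3 (0.11, SE 0.12) did not pass, nor did cyp-33A1, cyp-33B1, cyp-33D1 and cyp-33D3, at 0.03 to 0.25.

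Family 14 had 5 genes, of which 3 rose (60%, against 7.54% of all probe sets), and it held the largest rises after cyp-33C8. By limma 0 genes fell in it, and 0 were lower at an unadjusted p under 0.05. Expression of a cyp-14A4 reporter is known to switch on in worms with disrupted mitochondria. Its transcript had 8.02, 8.49, 8.17, 9.88 and 9.81 on mutant arrays, against 5.89, 4.88, 5.35, 5.05 and 4.99 on wild-type arrays. Mutant replicates 4 and 5 were higher than the other 3 mutant arrays, and all 5 were above every wild-type array. The difference was 3.64 (SE 0.39, limma adjusted p = 0.00024, exact permutation p = 0.00794), and it was 2.99 without mutant replicates 4 and 5 (adjusted p = 0.000197), which lowers the fold by over 1.5 times. The wild-type mean of 5.23 was at the background of wild-type replicate 1, although each wild-type array was above its own background.

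The gene cyp-14A1 had 8.05, 8.07, 8.01, 8.45 and 8.08 on mutant arrays, against 5.69, 5.35, 5.33, 5.16 and 4.81 on wild-type arrays. The mutant arrays lay close together, with replicate 4 a little above the rest, and the groups were far apart. The difference was 2.87 (SE 0.15, limma adjusted p = 2.11e-06, exact permutation p = 0.00794). In contrast, cyp-14A2 was at 5.50 ± 0.37 in gas-1 worms and 5.81 ± 0.16 in N2 worms (SD, n = 5), and the 95% confidence interval of the difference was -0.67 to 0.07. For cyp-14A3 the means were 4.89 ± 0.08 in gas-1 worms and 5.02 ± 0.24 in N2 worms (SD, n = 5), and neither of these genes passed. The third rise was cyp-14A5 (0.75, SE 0.19, 1.68-fold, limma adjusted p = 0.0272), whose groups overlapped, since mutant replicate 5 (6.77) lay below wild-type replicate 5 (7.07). Its probe set is one of shared probes. Its call ended without any 1 of mutant replicates 1 to 4 or wild-type replicates 1 to 4, at adjusted p of 0.0509 to 0.0717, and under quantile normalization at adjusted p = 0.105 and centring at 0.0905.

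**Figure D2:**
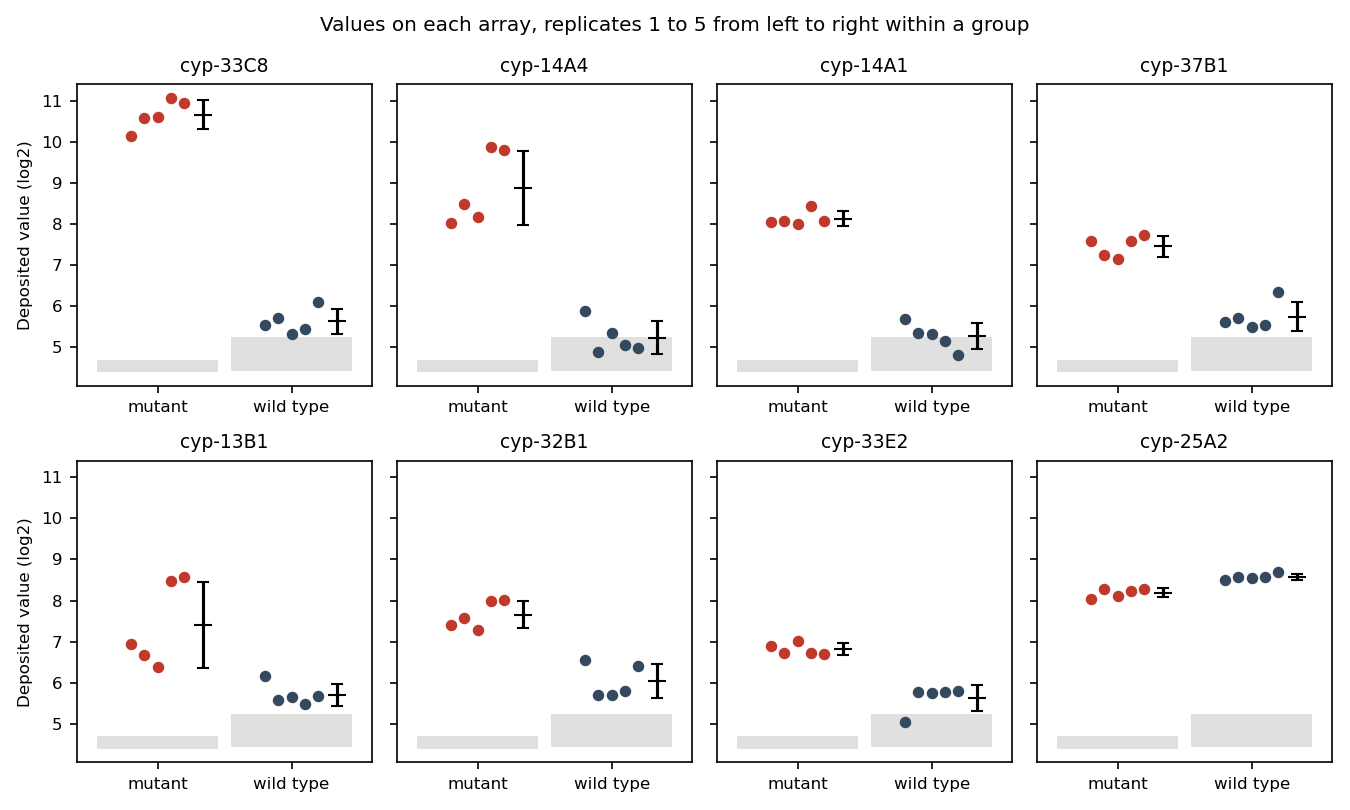
Deposited log2 value (y axis) on each array for 8 P450 genes, mutant left and wild type right, with replicates 1 to 5 from left to right. Black marks are the mean and SD of 5 arrays, and grey bands are the range of array backgrounds in each group. Mutant and wild-type points do not overlap in any panel. Mutant replicates 4 and 5 stand furthest above the other mutant arrays for cyp-14A4 and cyp-13B1, and by less for cyp-33C8, cyp-32B1 and cyp-14A1.

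Family 34 had 9 genes on chromosome V, and only cyp-34A8 was called among them (11.1% higher, against 7.54% of all probe sets). It had 8.51, 8.61, 8.74, 8.05 and 8.01 on mutant arrays, against 7.65, 7.76, 7.71, 7.58 and 7.14 on wild-type arrays. Here mutant replicates 4 and 5 were the lower ones, yet above all wild-type arrays, and the difference was 0.82 (SE 0.17, 1.76-fold, limma adjusted p = 0.0117). The other 8 genes had differences of -0.15 to 0.28. Family 36 has 1 gene, cyp-36A1, which acts downstream of the hypoxia factor HIF-1 in worm stress responses and behaviour. It had 7.71, 7.64, 7.51, 7.46 and 7.46 on mutant arrays, against 7.28, 7.16, 7.17, 7.08 and 7.24 on wild-type arrays. The groups did not overlap, and the rise was small (0.37, SE 0.07, 1.29-fold, limma adjusted p = 0.00917). The call ended under quantile normalization (adjusted p = 0.155) and centring on array medians (adjusted p = 0.116).

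In families 13, 25 and 43, whose vertebrate relatives include drug-metabolising CYP3A enzymes, 3 of 15 genes were called higher and 2 lower. These shares were 20% and 13.3%, against 7.54% and 4.28% of all probe sets. Apart from genes at background in both groups, 2 were called higher and 1 lower. The rise above background in family 13 was cyp-13B1, with 6.93, 6.67, 6.39, 8.48 and 8.56 on mutant arrays, against 6.15, 5.58, 5.65, 5.47 and 5.68 on wild-type arrays. Mutant replicates 4 and 5 were again the high ones, and no mutant array overlapped the wild type. The difference was 1.70 (SE 0.42, 3.25-fold, limma adjusted p = 0.0268) and 0.96 without mutant replicates 4 and 5 (adjusted p = 0.0137). The call ended without mutant replicate 4 or without wild-type replicate 2, 3 or 4, at adjusted p of 0.0532 to 0.0688. A second cyp-13B1 probe set had means of 7.14 ± 1.07 in gas-1 worms and 5.34 ± 0.22 in N2 worms (SD, n = 5) and was called too (adjusted p = 0.0221). Both probe sets have suffixes of shared probes, so the second is no separate check of the gene.

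The rifampicin-induced gene cyp-13A7 was at 5.88 ± 0.23 in gas-1 worms and 5.74 ± 0.13 in N2 worms (SD, n = 5) and did not pass. The other genes of family 13 that did not pass had differences of -0.38 for cyp-13A2 up to 0.47 for cyp-13A8 (SE 0.15, limma adjusted p = 0.0623). For cyp-13A8 a call as higher came under 6 of the 21 alternatives, among them centring on array medians and leaving out wild-type replicate 1. The gene cyp-25A6 in family 25 did not pass (0.36, SE 0.18). The 2 called genes of subfamily 13A were both at background in both groups, so no change of the transcript is read from them. They were cyp-13A4, with 3.26, 3.72, 3.74, 3.41 and 3.20 on mutant arrays, against 4.23, 4.58, 4.44, 4.72 and 3.63 on wild-type arrays (limma adjusted p = 0.0204), and cyp-13A6 (0.33, SE 0.08, adjusted p = 0.0182). The call on cyp-13A4 ended without mutant replicate 1 or 5 or wild-type replicate 2, 3 or 4 (adjusted p of 0.0502 to 0.0573). The call on cyp-13A6 ended without wild-type replicate 3 (adjusted p = 0.0529) and under centring (0.13). It also ended with a variance trend (0.0617) and with a block for replicate number (0.102). The oxygen-response gene cyp-13A12 shares its probe set with another P450 gene and was not analysed here.

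The only fall on a gene above background was cyp-25A2. It had 8.05, 8.29, 8.12, 8.22 and 8.27 on mutant arrays, against 8.51, 8.58, 8.55, 8.57 and 8.70 on wild-type arrays. Every mutant array was below every wild-type array, and the step was small, 1.31-fold lower (-0.39, SE 0.07, limma adjusted p = 0.006, exact permutation p = 0.00794). Another gene of the subfamily, cyp-25A1, had 6.85, 7.11, 7.01, 5.60 and 5.86 on mutant arrays, against 7.15, 7.08, 7.09, 6.92 and 7.35 on wild-type arrays. Mutant replicates 4 and 5 were low and the other 3 lay at the wild-type level, the groups overlapped, and the difference did not pass (-0.63, SE 0.29, adjusted p = 0.202). The gene cyp-43A1 was called higher (0.51, SE 0.13, 1.43-fold, adjusted p = 0.0251), with 7.90 ± 0.15 in gas-1 worms and 7.39 ± 0.25 in N2 worms (SD, n = 5). That call ended without mutant replicate 1, 4 or 5 or wild-type replicate 2, 3 or 4 (adjusted p of 0.0515 to 0.0598) and under quantile normalization (0.151) and centring (0.119).

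Among the CYP4-like families 29, 31, 32, 37 and 42, 3 of 13 genes rose (23.1%, against 7.54% of all probe sets). By limma 0 fell, and 1 was lower at an unadjusted p under 0.05. The gene cyp-37B1 had 7.59, 7.24, 7.15, 7.58 and 7.74 on mutant arrays, against 5.62, 5.71, 5.50, 5.54 and 6.36 on wild-type arrays. The groups were apart although wild-type replicate 5 stood above its group, and the difference of 1.72 (SE 0.18, 3.29-fold) had a limma adjusted p of 0.000179 and an exact permutation p of 0.00794. Its family member cyp-37A1 was at 7.48 ± 0.10 in gas-1 worms and 7.59 ± 0.09 in N2 worms (SD, n = 5) and did not pass. The gene cyp-32B1 had 7.41, 7.57, 7.29, 7.995 and 8.02 on mutant arrays, against 6.57, 5.70, 5.71, 5.80 and 6.41 on wild-type arrays. No mutant array overlapped the wild type, where replicates 1 and 5 were high, and the difference was 1.62 (SE 0.22, 3.08-fold, adjusted p = 0.000902). This probe set too is of shared probes, and mutant replicates 4 and 5 were the highest of their group on it. For cyp-32A1 the 2 probe sets disagreed. The brighter one did not pass (-0.08, SE 0.18), with wild-type replicate 1 at 6.64, while the dimmer one, of shared probes, was called higher (0.53, SE 0.09, limma adjusted p = 0.00464).

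Family 31 contains cyp-31A2 and cyp-31A3, which work with the reductase EMB-8 in making lipids for the eggshell. On its shared-probe set cyp-31A2 read 10.65 ± 0.05 in gas-1 worms and 10.57 ± 0.17 in N2 worms (SD, n = 5), and the 95% confidence interval of the difference was -0.12 to 0.28. For cyp-31A3 the means were 9.64 ± 0.14 in gas-1 worms and 9.78 ± 0.13 in N2 worms (SD, n = 5), and the interval was -0.35 to 0.06. The list of oocyte, eggshell and early embryo markers gave array means of 11.82 to 12.10 in gas-1 worms and 11.86 to 12.14 in N2 worms, with 0 of 14 genes called by limma and 0 at an unadjusted p under 0.05. For cyp-31A5 every mutant array was below every wild-type array, but the difference of -0.16 (SE 0.07) did not pass (limma adjusted p = 0.173). The fourth gene, cyp-31A1, is a pseudogene in RefSeq and was called higher (0.43, SE 0.08, adjusted p = 0.00811). Its probe set is of shared probes, so its close copies cannot be told apart from it. The call ended with a block for replicate number (limma adjusted p = 0.0609).

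Of the 4 genes of family 29, limma called 0, with 1 at an unadjusted p under 0.05 (cyp-29A4) and differences of -0.06 to 0.34. Without mutant replicates 4 and 5 and wild-type replicates 1 and 5, cyp-29A4 was called higher (0.60, adjusted p = 0.00112) and cyp-29A2, at 0.06 over all arrays, was called lower (-0.29, adjusted p = 0.0388). The eicosanoid-forming enzyme gene cyp-29A3 was at 6.56 ± 0.15 in gas-1 worms and 6.62 ± 0.32 in N2 worms (SD, n = 5), with an interval for the difference of -0.39 to 0.27. The gene cyp-44A1 encodes the worm's mitochondrial-type P450. It had 9.15, 9.51, 9.33, 9.27 and 9.37 on mutant arrays, against 9.05, 9.40, 9.33, 9.29 and 9.30 on wild-type arrays. The groups overlapped throughout, and the difference was 0.05 with a 95% confidence interval of -0.15 to 0.25. The single genes of families 23 and 42 did not pass either, at -0.23 (SE 0.10) for cyp-23A1 and -0.11 (SE 0.13) for cyp-42A1.

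The called genes varied between mutant arrays in different ways. For 3 of the 63 genes the mean of mutant replicates 4 and 5 was at least 1 log2 unit away from that of replicates 1 to 3. These were cyp-13B1 (8.52 in replicates 4 and 5, 6.66 in replicates 1 to 3), cyp-14A4 (9.85 and 8.22) and cyp-25A1 (5.73 and 6.99). The split was seen after the values were known and is given without a test. Marker levels moved with it: sperm markers had array means of 9.53 and 9.56 in mutant replicates 4 and 5 and 6.82 to 6.97 in replicates 1 to 3. Body wall muscle markers had 10.62 and 10.65 in replicates 4 and 5 and 9.61 to 9.76 in replicates 1 to 3. Hypodermis markers had 10.36 to 10.40 against 9.54 to 9.55, intestine markers 10.40 to 10.41 against 9.70 to 9.91, and neuron markers 8.39 to 8.44 against 7.86 to 7.91, in the same order of replicates. Oocyte, eggshell and early embryo markers lay the other way, at 11.82 to 11.86 in replicates 4 and 5 and 11.97 to 12.10 in replicates 1 to 3. Some markers set wild-type replicate 5 apart too. For sperm gene msp-3 it had 9.52, the other wild-type arrays 12.42 to 12.50, and for muscle gene unc-54 10.19 against 11.17 to 11.25. Cuticle genes went both ways on it, col-19 lower (11.52 against 12.72 to 12.80) and bli-1 higher (7.59 against 5.55 to 6.07). The part of these levels in the P450 values was not tested.

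**Figure D3:**
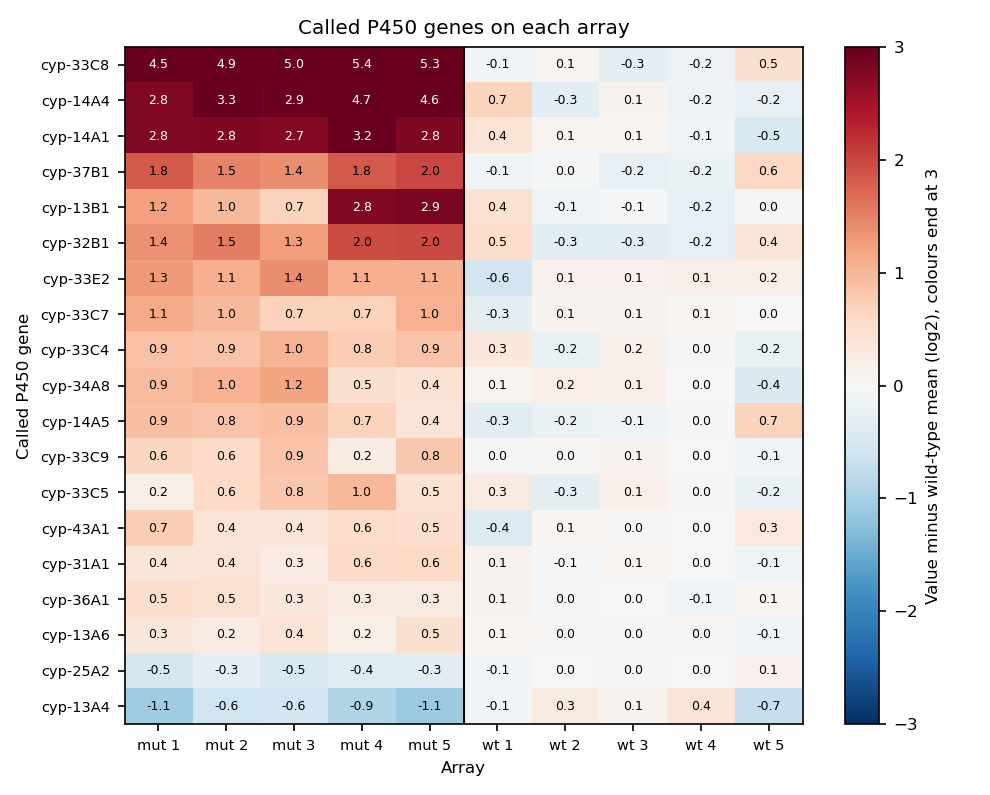
Value minus the wild-type mean (log2, printed in each cell) for the 19 called P450 genes on each array, mutant arrays left and wild-type arrays right of the line, ordered by the mean difference. Colours end at 3 units. The cells of cyp-33C8 are the darkest row. Among these genes, cyp-13B1 and cyp-14A4 have the widest gap between mutant replicates 4 and 5 and replicates 1 to 3.

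Many P450 genes of the worm lie beside each other, and the rises lay both in these rows of neighbours and outside them. Neighbours here are P450 genes with at most 2 other genes between them in RefSeq's gene order (assembly WBcel235). There were 9 rows with 2 or more of the 63 genes. In 6 of these rows some members were called higher and others were not, in 3 no member was called higher, and in 0 were all called higher. The row of cyp-13A genes on chromosome II is among the 6 through cyp-13A6, which was at background. On the X chromosome, cyp-14A1 and cyp-14A4 rose at the ends of a row whose inner genes, cyp-14A2 and cyp-14A3, did not pass. On chromosome V, cyp-33C4, cyp-33C5 and cyp-33C7 rose while cyp-33C3 (-0.02, SE 0.13) and cyp-33C6 (0.30, SE 0.18), which lie between them, did not pass. On the same chromosome cyp-34A8 was called within a row of 6 genes of which the other 5 were not, and cyp-32B1 was called beside cyp-33C12, which was at background in both groups. On chromosome IV, cyp-33E2 rose and its neighbour cyp-33E3, at background, did not pass. Of the 17 rises, 9 were in such rows and 8 outside them, with cyp-33C8 and cyp-37B1 among those outside. Of all 63 genes, 33 were in such rows, a similar share.

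**Figure D4:**
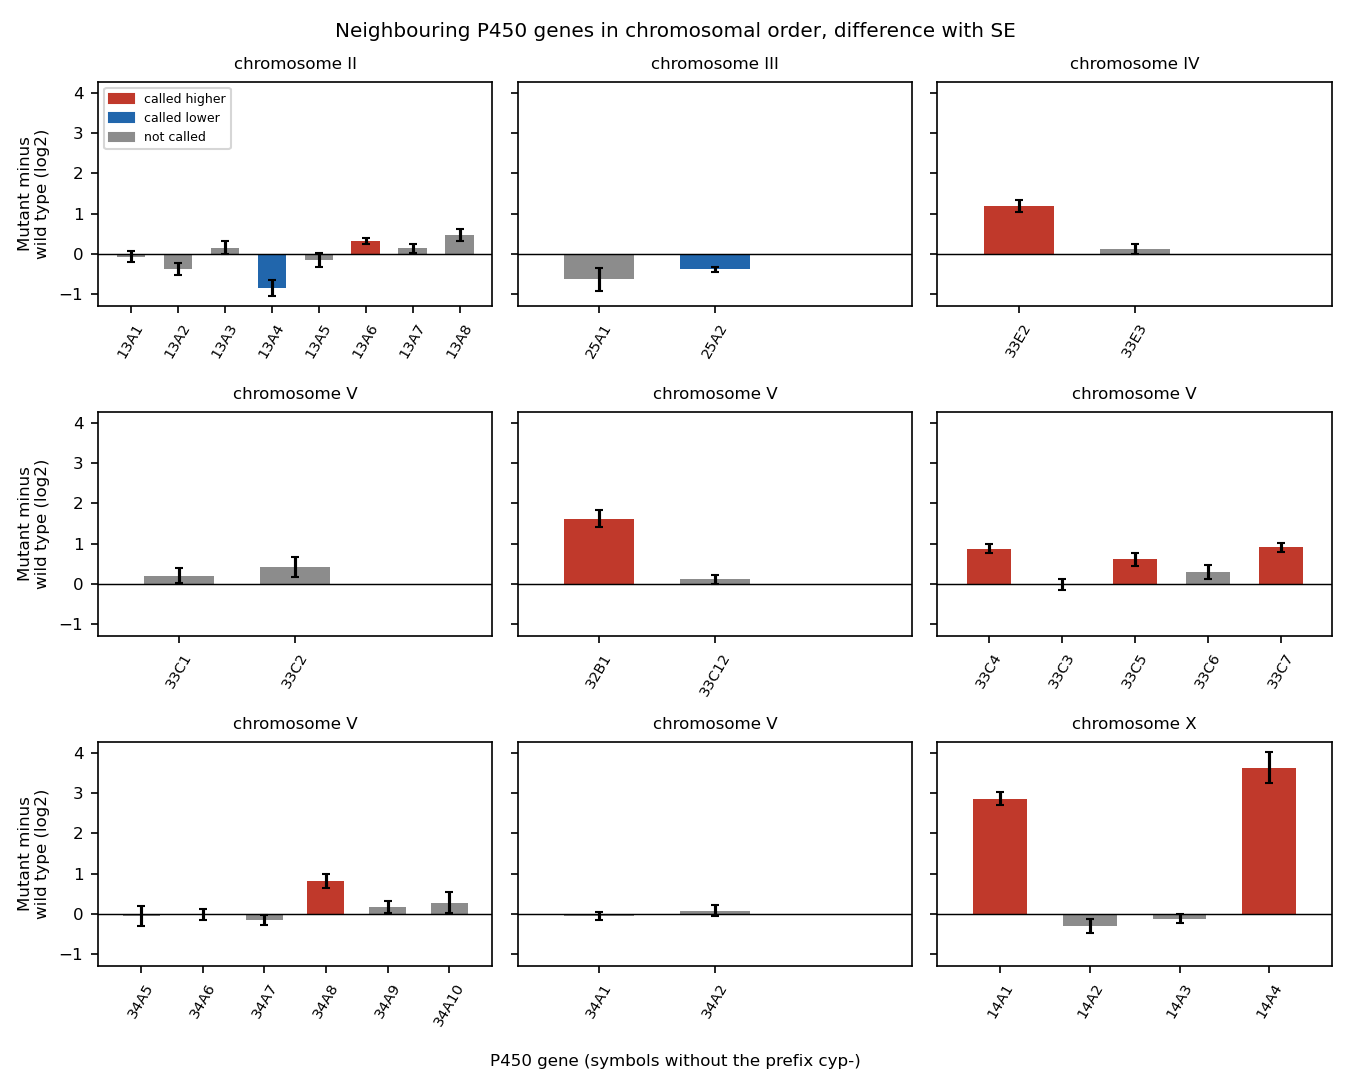
Difference between mutant and wild type (log2, y axis, bars from 0 with SE) for neighbouring P450 genes in their order along the chromosome, 1 panel per row of neighbours, members only. Red is called higher, blue called lower and grey not called. In the panel of chromosome X the outer genes cyp-14A1 and cyp-14A4 are at 2.87 and 3.64, and the inner genes are below 0.

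In the left-out family 35, of 10 genes limma called 4 lower, or 40%, against 4.28% of all probe sets, with cyp-35A3 lowest (-2.37). By limma 0 were called higher, against 7.54% of all probe sets. At an unadjusted p under 0.05, 5 were lower and 1 was higher, cyp-35B1, which was at background in both groups. The median difference of family 35 was -0.30, against 0.11 for the 63 genes. Whether the families differ was not tested.

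A list of P450 partners held genes for electron supply, for steroid hormone synthesis with the P450 gene daf-9, and for epoxide hydrolases. Of 12 measured, 1 rose, or 8.33%, against 7.54% of all probe sets, and by limma 0 fell. At an unadjusted p under 0.05, 4 were higher and 1 lower, and the median difference was 0.12. The reductase gene emb-8 had 9.92, 10.18, 10.18, 10.57 and 10.58 on mutant arrays, against 10.05, 9.85, 9.87, 9.94 and 9.87 on wild-type arrays. Mutant replicates 4 and 5 were high and replicate 1 lay within the wild-type range, and the difference did not pass (0.37, SE 0.13, limma adjusted p = 0.0885). The cytochrome b5 genes cytb-5.2 (0.33, SE 0.10) and cytb-5.1 (-0.33, SE 0.11) lay on opposite sides of 0 and did not pass. The partner that rose was ceeh-1, an epoxide hydrolase that opens the fatty acid epoxides P450s make. It was at 8.19 ± 0.24 in gas-1 worms and 7.14 ± 0.17 in N2 worms (SD, n = 5), which is 2.08-fold higher (1.06, SE 0.13, limma adjusted p = 0.000455). Its relative ceeh-2 was at -0.01 (SE 0.17). The probe sets of emb-8 and ceeh-2 have the suffix of probes shared with like sequences. The steroid hormone P450 gene daf-9, whose symbol is not of the cyp form, was at 0.06 (SE 0.11).

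Of 6 measured haem transport genes 3 rose, against 7.54% of all probe sets. All 6 differences were positive, with a median of 0.70, which includes hrg-3 at background in both groups. The lysosomal haem permease gene hrg-1 had 10.20, 10.12, 10.19, 10.84 and 10.88 on mutant arrays, against 8.84, 8.86, 8.86, 8.90 and 8.93 on wild-type arrays. The wild-type arrays were almost level, the groups were apart, and mutant replicates 4 and 5 were again higher. This 2.96-fold rise (1.56, SE 0.16) had a limma adjusted p of 0.000154 and an exact permutation p of 0.00794. The probe sets of hrg-1 and hrg-9 have the suffix of probes shared with like sequences. The protease gene hrg-7, part of haem signalling between intestine and neurons, rose by 0.79 (SE 0.18, adjusted p = 0.0181), and the intestinal haem exporter gene mrp-5 rose by 0.53 (SE 0.14, adjusted p = 0.0371). The uptake gene hrg-4 (0.60, SE 0.28) and hrg-9 (0.35, SE 0.18) did not pass.

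Of 14 measured regulators of detoxification genes, 3 rose, or 21.4%, against 7.54% of all probe sets, with a median difference of 0.25. By limma 0 fell, and at an unadjusted p under 0.05 there were 5 higher and 0 lower. The nuclear receptor gene nhr-8, which worms need for resistance to some foreign compounds, had 8.81, 9.16, 8.99, 9.31 and 9.38 on mutant arrays, against 7.42, 7.97, 7.96, 7.91 and 8.05 on wild-type arrays. The groups did not overlap, and the 2.41-fold rise (1.27, SE 0.14) had a limma adjusted p of 0.000333 and an exact permutation p of 0.00794. Smaller rises were found for the nuclear receptor gene nhr-176 (0.39, SE 0.09, adjusted p = 0.0149) and for skn-1, a factor of the oxidative stress response (0.34, SE 0.06, adjusted p = 0.00685). The nuclear receptor gene nhr-45, known for its part in switching on cyp-14A4 in worms with disrupted mitochondria, was at 0.32 (SE 0.19, adjusted p = 0.353). The receptor genes daf-12, nhr-49 and nhr-86 and the aryl hydrocarbon receptor gene ahr-1 did not pass.

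**Figure D5:**
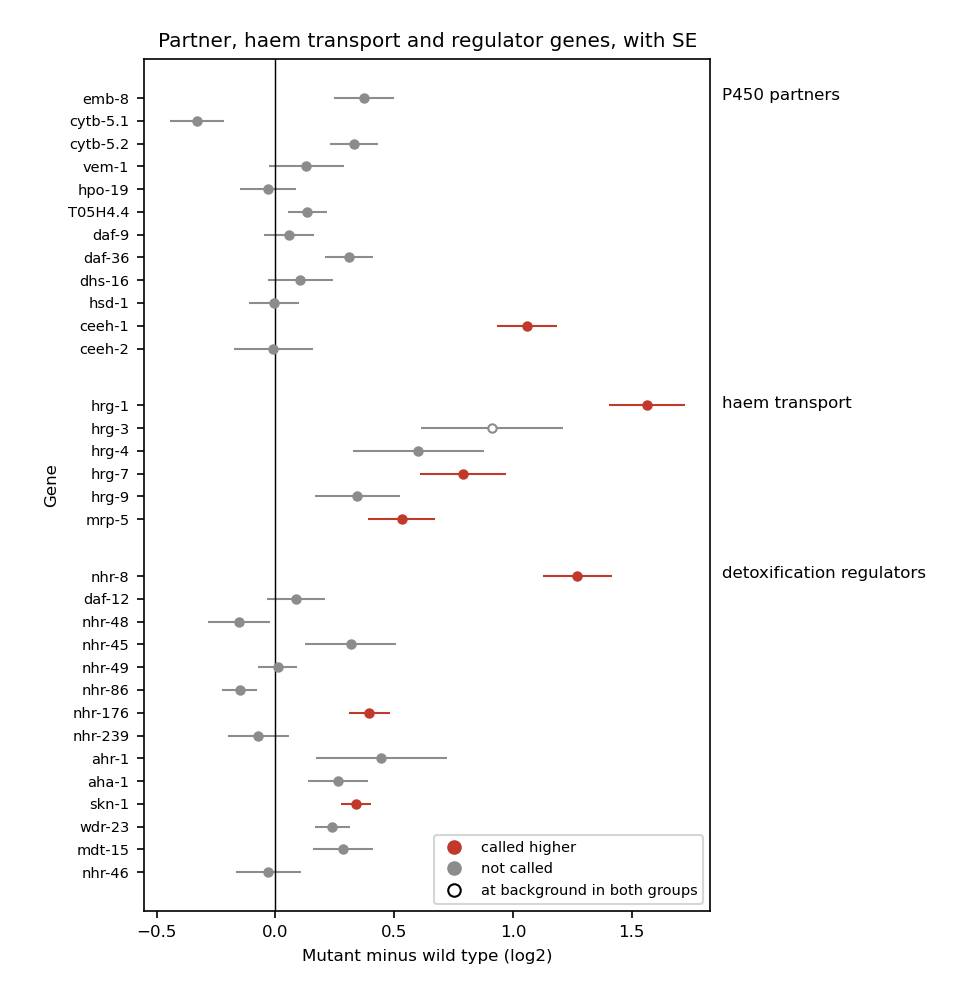
Difference between mutant and wild type (log2, x axis) with SE for P450 partners, haem transport genes and regulators, from 5 mutant and 5 wild-type arrays. Red is called higher, grey not called, and the open point is at background in both groups. The 7 red points are ceeh-1, hrg-1, hrg-7, mrp-5, nhr-8, nhr-176 and skn-1, from 0.34 to 1.56.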

How the data were processed

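The authors deposited 1 log2 signal per probe set and array. The log2 scale was inferred from the range of 0 to 14.2, while the probe summary, normalization and genome build were not given in the sources used here. The 77 control probe sets were left out, 27 of which, for Bacillus transcripts, gave the background as their median per array. Values were used as deposited because array medians spanned 0.386, under a limit of 0.5. Gene names are those of the platform annotation, and all 63 matched the same RefSeq symbol. Each of the 22548 probe sets was fitted in limma (version 3.58.1, R 4.3.3) by lmFit with eBayes (2-sided, genotype as the only term, Benjamini-Hochberg adjusted p under 0.05), after the step was tested on simulated data. Exact permutation tests were 2-sided over 252 assignments. Alternatives were 2 normalizations, 2 filters on dim probe sets, a variance trend, weights per array, a block for replicate number, leaving out each array, probe sets averaged per gene, RefSeq symbols and, chosen after seeing the data, 2 sets of arrays left out. Genes named were all called members plus a list of P450s with known roles, and other members named (such as cyp-25A1) were chosen after their values were seen. The members and lists were chosen with earlier results of these data known. The labels call the arrays biological replicates, and 99.7% or more of values differed between any 2 arrays. The number of arrays limits the precision. No sequences or coordinates are given.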

Additional observations from a re-analysis of the deposited data

Results flagged for a closer look

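In 8 of 56 groups of 5 arrays, over the 28 P450 genes tested for it, 1 array stood far from the other 4 (a gap of over 0.71 of the group's range). For independent groups of normally distributed values, this limit flags about 1 in 20. The groups here share the same 10 arrays, and many of the genes were named because they were called. No excess over chance is therefore read from the count. Of the 8 arrays, 7 were wild-type replicate 1 or 5. Wild-type replicate 5 was high for cyp-14A5 (7.07, the others 6.05 to 6.32), cyp-37B1 (6.36, the others 5.50 to 5.71), cyp-31A2 (10.88, the others 10.47 to 10.52) and cyp-31A3 (10.02, the others 9.69 to 9.76). Wild-type replicate 1 was low for cyp-33E2 (5.06, the others 5.75 to 5.80) and high for cyp-32A1 (6.64, the others 5.65 to 5.85) and cyp-23A1 (5.09, the others 4.88 to 4.92). The eighth was mutant replicate 4 for cyp-14A1 (8.45, the others 8.01 to 8.08). Leaving out the array in question did not end the call on cyp-37B1, cyp-33E2 or cyp-14A1.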

How the results depend on the processing

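Of the 19 called P450 genes, 11 kept their call in every one of the 21 alternatives that tested them, and 0 changed direction. The 17 rises became 14 (22.2%) under quantile normalization and under centring, against 6.92% and 5.7% of all probe sets. With 1 array left out they became 12 to 18 (19% to 28.6%, against 5.22% to 8.28%). With the replicate block they became 11 (17.5%, against 4.74%), all 11 among the 17. The block ended the calls on cyp-13A6, cyp-13B1, cyp-14A5, cyp-31A1, cyp-33C5 and cyp-43A1, at limma adjusted p of 0.0609 to 0.121. The replicate numbers share only a number: correlations of deviations between same-numbered arrays were -0.175 to 0.098. The 2 falls became 1 without the dimmest 33% or 50% of probe sets (2.27% and 3.45%, against 7.57% and 10.3% of all probe sets kept). With array weights they became 4 (6.35%, against 11.2%). With 1 array left out they became 1 to 3 (1.59% to 4.76%, against 2.12% to 7.14%). Without mutant replicates 4 and 5 there was 1 fall (1.59%, against 3.49%). Without those and wild-type replicates 1 and 5 there were 4 (6.35%, against 11.2%). Of the 44 genes that did not pass, 8 were called under at least 1 alternative: cyp-13A8, cyp-29A4, cyp-33C2 and cyp-33C12 higher, and cyp-13A2, cyp-13A5, cyp-23A1 and cyp-29A2 lower. The difference changed sign under at least 1 alternative for 21 of the 44, none over 0.277 in size. Among the 9 of the 44 with a role in the list of known roles, it did so for cyp-32A1 (0.10 with array weights, 0.22 with probe sets averaged, 0.17 without the 4 arrays, -0.14 to 0.10 with 1 array left out), cyp-42A1 (0.027 with array weights, 0.083 averaged, 0.039 without the 4 arrays), cyp-44A1 (-0.0073 without the 4 arrays, -0.0044 to 0.095 with 1 array left out) and cyp-29A3 (-0.17 to 0.053 with 1 array left out). Each of these leave-one-out changes of sign came without wild-type replicate 1. The cause of these shifts was not tested. Signals near background in both groups limit what 8 of the 63 genes can show. The N2 means of cyp-14A3, cyp-14A4, cyp-23A1, cyp-33C6, cyp-33C7, cyp-33D3, cyp-34A5, cyp-34A7 and cyp-42A1 did not exceed the background of wild-type replicate 1 (5.25). They did exceed the 4.43 to 4.75 of the other wild-type arrays. That these genes count as at background in N2 worms alone thus rests on 1 array. Nearness to background limits their differences too.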
